A study of Mus musculus with 12 samples.

Results

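The genes described here are 10 genes by which oligodendrocyte precursor cells (OPCs) are commonly recognised: Pdgfra, Cspg4, Ptprz1, Vcan, Olig1, Olig2, Sox10, Sox6, Lhfpl3 and C1ql1. They were chosen by name and not by a measured value, though earlier results of these data were known. All 10 were found among the 30165 genes of the OPC table and among the 17918 genes of the neuron table. RNA was sequenced from 12 libraries of mouse cortex, 3 each of OPCs and of neurons from control (ctl) mice and from double knockout (dKO) mice. The dKO mice carried NG2-CreERT2, an inducible recombinase driven by Cspg4, together with floxed alleles of Cacna1c and Cacna1d, the pore subunits of the L-type calcium channels Cav1.2 and Cav1.3. The labels call the ctl mice WT, and the sources used here give neither their recombinase and floxed alleles nor the age at which cells were taken. Tamoxifen at 100 mg/kg was given on postnatal days 7 and 8, and the cells of 2 mice of the same group were pooled in each library, 6 mice per group. Antibodies to CD140, NG2 and O4 on magnetic beads captured the OPCs, so the proteins of Pdgfra and Cspg4 served to choose the cells. Neurons were what remained after cells carrying ACSA-2, CD31, CD11b or O4 had been removed.

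OPCs are the dividing glial cells from which the myelinating oligodendrocytes of the brain arise, and they remain spread through the adult cortex. Pdgfra passes on the PDGF signal that keeps OPCs dividing and alive, and the proteoglycans of Cspg4, Ptprz1 and Vcan cover their surface or surround it. Olig1, Olig2 and Sox10 are transcription factors of the whole oligodendrocyte lineage and stay on in mature cells, whereas Pdgfra and Cspg4 are switched off as OPCs differentiate.

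Promoter sequences of RefSeq on GRCm38.p6 were matched for 7 of the 10 genes: Pdgfra, Cspg4, Ptprz1, Vcan, Olig2, Lhfpl3 and Sox6, the last with 6 start sites. The 250 bases before the start are printed 5′ to 3′ for 4 genes, namely the pair whose proteins the beads bound, Ptprz1, the member at an unadjusted p under 0.05 in OPCs, and Olig2 as the lineage factor. Capitals mark the letters ACAAAG and AACAAT, short forms of sites that SOX proteins bind, and CANNTG, the E-box that basic helix-loop-helix proteins such as OLIG1 and OLIG2 bind, on either strand.
Pdgfra (chr5:75152001-75152250, plus strand): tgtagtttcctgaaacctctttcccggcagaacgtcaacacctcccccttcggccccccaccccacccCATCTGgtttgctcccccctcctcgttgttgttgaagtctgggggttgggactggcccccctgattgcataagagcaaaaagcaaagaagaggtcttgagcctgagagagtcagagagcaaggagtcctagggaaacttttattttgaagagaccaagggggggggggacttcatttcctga
Cspg4 (chr9:56864854-56865103, plus strand): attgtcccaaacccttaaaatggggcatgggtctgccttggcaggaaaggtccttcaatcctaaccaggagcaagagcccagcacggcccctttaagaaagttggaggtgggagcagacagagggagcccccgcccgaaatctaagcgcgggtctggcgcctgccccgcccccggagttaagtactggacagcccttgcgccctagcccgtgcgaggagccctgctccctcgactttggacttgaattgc
Ptprz1 (chr6:22875252-22875501, plus strand): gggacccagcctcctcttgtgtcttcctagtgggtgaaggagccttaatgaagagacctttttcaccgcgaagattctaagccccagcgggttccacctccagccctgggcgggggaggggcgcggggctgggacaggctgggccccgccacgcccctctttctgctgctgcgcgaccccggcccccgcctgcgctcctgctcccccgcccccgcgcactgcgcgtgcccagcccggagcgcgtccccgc
Olig2 (chr16:91225300-91225549, plus strand): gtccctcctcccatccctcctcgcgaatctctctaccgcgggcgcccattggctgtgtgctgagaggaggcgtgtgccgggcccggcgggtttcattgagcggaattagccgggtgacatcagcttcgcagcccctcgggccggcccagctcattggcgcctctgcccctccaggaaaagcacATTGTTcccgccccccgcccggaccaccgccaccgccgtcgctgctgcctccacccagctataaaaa
The Pdgfra window held 1 E-box and the Olig2 window 1 AACAAT, while neither the Cspg4 nor the Ptprz1 window held any of these letters. Over the 12 windows of the 7 matched genes, CANNTG stood in 9, among them the 6 of Sox6. ACAAAG stood in 5, all of Sox6, and AACAAT in 2. By gene, CANNTG was found for 4 of the 7, namely Lhfpl3, Pdgfra, Sox6 and Vcan. Among all 32851 promoters of this length, 66.2% held CANNTG, 16.5% ACAAAG and 9.42% AACAAT, so the E-box was common in either set. GC content was 54.4% before Pdgfra, 60.4% before Cspg4, 66.8% before Olig2 and 71.6% before Ptprz1, with a median of 52.4% over all promoters.

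Total counts per library lay between 14935963 and 19812274 for OPCs and between 15052892 and 16344601 for neurons. The OPC fraction also held RNA of mature oligodendrocytes: the 12 markers of these cells, Mbp among them, summed to 35845 to 59199 TPM (reads scaled by gene length and depth), and the 10 OPC genes to 1434 to 2789 TPM. As high were 8 markers of the choroid plexus, the epithelium that secretes cerebrospinal fluid, with 30736 to 68849 TPM, above the mature oligodendrocyte markers in ctl replicate 1 and dKO replicates 2 and 3. In the neuron libraries the choroid plexus markers summed to 12501 to 26911 TPM in ctl and 25462 to 67778 TPM in dKO, with 8 of 8 higher at an unadjusted p under 0.05 (median log2 fold change 1.04). There 10 endothelial markers summed to between 6990.2 and 18064 TPM and 10 neuron markers to between 481 and 921 TPM. In each of these libraries the neuron markers thus summed to less than the endothelial or the choroid plexus markers. Values given below for neurons are those of the whole fraction. No marker of any list was at 0 in all libraries of a cell type. The OPC library of dKO replicate 2 stood apart by its sex-linked genes, with a normalized count of 13595 for Xist, against at most 20.2 in the other 5 libraries, and with 0 for the Y-linked Ddx3y, Eif2s3y, Uty and Kdm5d. In neurons Ddx3y had 3147 in ctl replicate 1 and 2524 in dKO replicate 1, and at most 14.2 in the other 4 libraries. The targeted Cacna1c had a normalized count of 373, 411 and 439 in ctl OPCs and 252, 337 and 312 in dKO OPCs, with every dKO library below every ctl library (log2 fold change -0.44, SE 0.15, adjusted p = 0.349, edgeR). Cacna1d had 251, 191 and 255 in ctl and 92.8, 153 and 232 in dKO OPCs, and its groups overlapped.

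The first question was how strongly each gene was present in the sorted cells. Levels were compared between genes in TPM, which accounts for gene length. In OPC libraries the lineage factors stood highest. Olig1 had a median of 1192 TPM (range 751 to 1541 over 6 libraries), Sox10 459 (327 to 681) and Olig2 279 (197 to 365). In each of the 6 libraries this order was kept, although the ranges of Sox10 and Olig2 overlapped. A wide gap followed, with no overlap between Olig2 and Ptprz1, a receptor phosphatase that binds pleiotrophin, at a median of 53.3 TPM (27.8 to 125). Pdgfra had 30.0 TPM (15.7 to 60.9) and C1ql1, a secreted C1q-like protein, 29.3 (10.7 to 60.2). From Ptprz1 downwards the ranges of neighbours in this order overlapped. Lhfpl3 had 23.4 TPM (11.7 to 39.8), Vcan 16.1 (9.80 to 28.0) and Cspg4 13.1 (9.71 to 14.8). Sox6 was the lowest at 7.81 TPM (5.92 to 13.0), yet Cspg4 lay above it in each of the 6 libraries.

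In neuron libraries the order was another one. Ptprz1 was the highest with a median of 25.4 TPM (19.9 to 32.9), ahead of Sox6 with 17.0 (11.6 to 20.9) in 6 of 6 libraries. Sox6 is also made by cortical interneurons, and Ptprz1 by astrocytes and by progenitors. Which cells of this fraction gave either RNA was not tested. Vcan had 8.68 TPM (6.59 to 17.4), Olig1 8.65 (2.73 to 29.1) and Pdgfra 4.79 (2.29 to 6.50). Sox10 had 4.10 TPM (1.59 to 11.7) and Olig2 2.86 (0.99 to 5.28), which was below Sox10 in each library. The lowest were Lhfpl3 with 1.58 TPM (0.18 to 4.02), C1ql1 with 1.26 (0.55 to 2.21) and Cspg4 with 0.90 (0.43 to 2.34). The ranges of all neighbours in this order overlapped.

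Side by side, the median TPM of OPC libraries over that of neuron libraries was 138 for Olig1, 112 for Sox10 and 97.6 for Olig2. It was 23.1 for C1ql1, 14.8 for Lhfpl3, 14.6 for Cspg4 and 6.27 for Pdgfra, and for these 7 genes every OPC library lay above every neuron library. For Ptprz1 (2.10) and Vcan (1.85) the ranges overlapped. Sox6, with 0.458, was the only gene of the 10 whose median was higher in neuron libraries, and its ranges overlapped too. Counting and scaling differed between the OPC table and the neuron table, so no test was run between them.

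**Figure D1:**
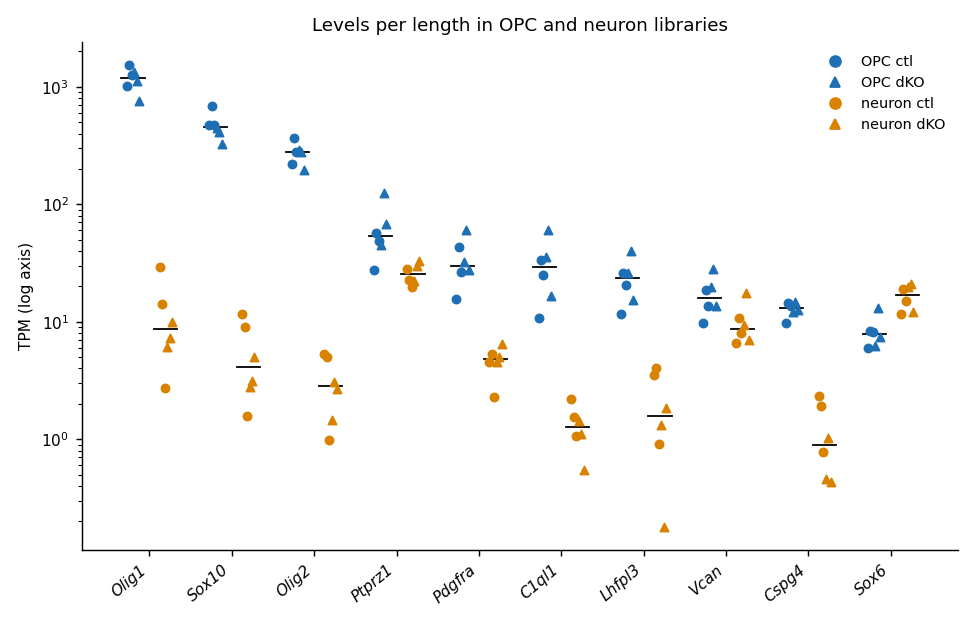
TPM of each gene (log axis) in the 6 OPC libraries (blue) and the 6 neuron libraries (orange), with circles for ctl, triangles for dKO and a black line at the median. Olig1, Sox10 and Olig2 lie far apart between the cell types, with medians of 1192 and 8.65 TPM for Olig1, whereas Ptprz1, Vcan and Sox6 overlap.

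The second comparison was dKO against ctl within OPC libraries, which asks whether the loss of the calcium channels went along with a change of the genes that mark these cells. Values are counts scaled by TMM to a common library size. In dKO OPCs 7 of the 10 genes had a higher and 3 a lower level, and their median log2 fold change was 0.47, where the median over the 17364 genes tested was 0.0055 and 50.8% were higher. None of the 10 reached an adjusted p under 0.05 (edgeR's quasi-likelihood test), where 0.00576% of all genes tested did, 1 gene, against 293 with DESeq2, 199 without dKO replicate 2 and 87 when low counts were kept. In the same libraries, at an unadjusted p under 0.05, 9 of 10 astrocyte markers (median 1.13) and 11 of 12 microglia markers (median 1.303) were higher and 4 of 12 mature oligodendrocyte markers lower (median -0.42), and their part in the members' values was not tested. At that threshold there was 1 of the 10 members, where 11.5% of all genes passed. The groups overlapped for each of the 10 genes, while they did not for 17.0% of all genes. The members at that threshold numbered 3 without ctl replicate 2 (of 1106 genes in all), 4 without dKO replicate 3 (of 1951) and 3 without a filter on low counts (of 2760), so how their share stood to that of all genes depended on these choices. Without dKO replicate 2 their median log2 fold change was 0.076, and 0 of the 10 had an unadjusted p under 0.05 (of 2292 genes). With 3 libraries against 3, an exact permutation test cannot give a p below 0.1. In bulk samples fewer cells of a type and less RNA per cell cannot be told apart.

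**Figure D2:**
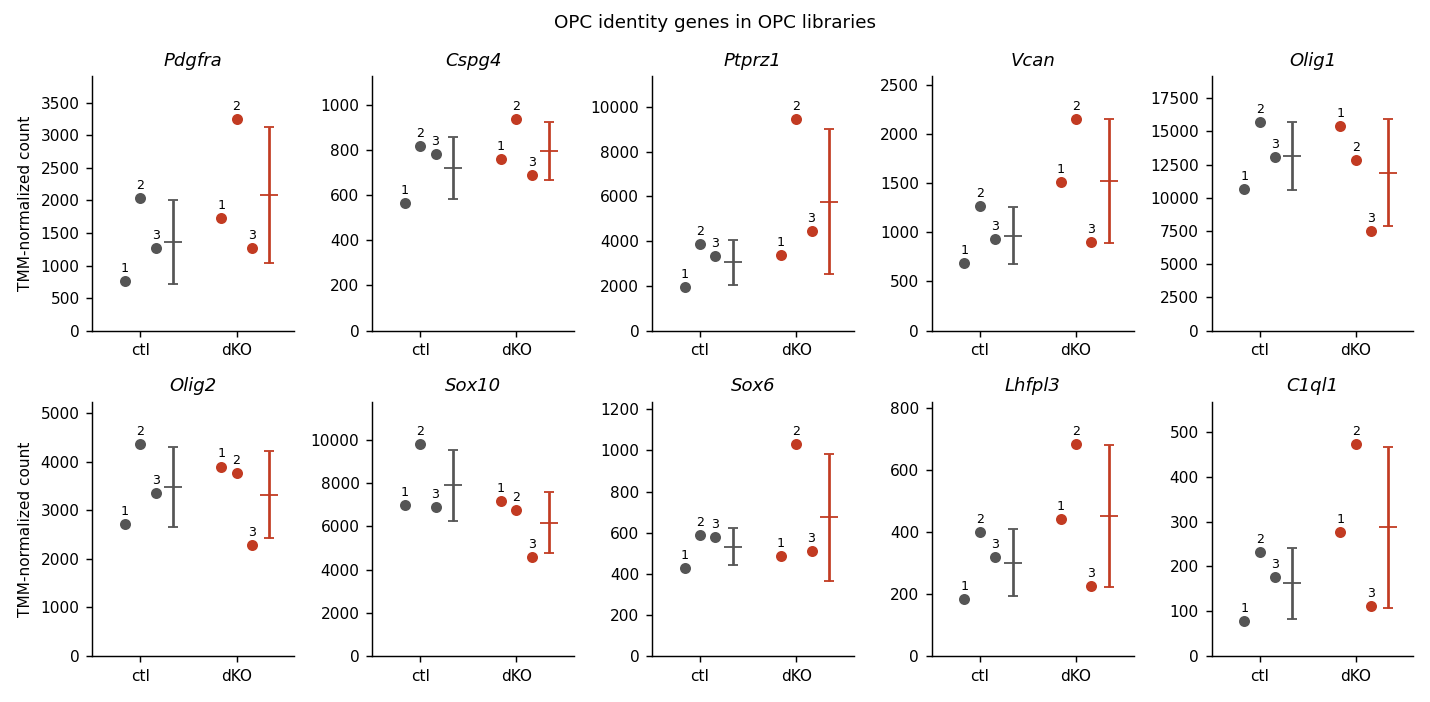
TMM-normalized count of each gene in the 3 ctl (gray) and 3 dKO (red) OPC libraries, numbered by replicate, with the mean and SD beside them. In 7 panels ctl replicate 1 is the lowest point and dKO replicate 2 the highest, while in the panels of Olig1, Olig2 and Sox10 ctl replicate 2 is the highest and dKO replicate 3 the lowest.

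Pdgfra (ENSMUSG00000029231), the receptor for PDGF-AA, had a normalized count of 765, 2044 and 1271 in the ctl libraries and of 1723, 3255 and 1269.9 in the dKO libraries. Replicate 3 of both groups had almost the same value, and dKO replicate 2 stood alone at the top. Its log2 fold change was 0.62 (SE 0.41, 95% interval -0.31 to 1.54, adjusted p = 0.581, edgeR), and it was 0.14 without dKO replicate 2 and 1.03, with an unadjusted p under 0.05, without ctl replicate 2. As a fold of dKO over ctl this interval runs from 0.807 to 2.92.

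Among the proteoglycans, Cspg4 (ENSMUSG00000032911) encodes NG2, from which the recombinase takes its driver. For NG2-CreERT2 the paper's supplement cites knock-in mice, and whether the ctl mice carried that allele is not given. The part of the allele in the values of Cspg4 was not tested. Cspg4 had 564, 816 and 782 in ctl and 759, 938 and 689 in dKO OPCs. The groups overlapped, with ctl replicate 1 below every dKO library and dKO replicate 2 above every ctl library, and its spread over the 6 libraries was the smallest of the 10 genes, with the highest value 1.66 times the lowest. This gave a log2 fold change of 0.14 (SE 0.17, 95% interval -0.25 to 0.54, adjusted p = 0.787, edgeR), and it was -0.0065 without ctl replicate 1.

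Ptprz1 (ENSMUSG00000068748) had 1928, 3859.7 and 3339 in ctl and 3380.5, 9463 and 4431 in dKO OPCs. Only the lowest dKO library, replicate 1, lay within the ctl range, and dKO replicate 2 stood far above every other library. Its log2 fold change was 0.92 (SE 0.39, 95% interval 0.031 to 1.81), the largest of the 10 except without ctl replicate 2 or dKO replicate 3, where C1ql1 exceeded it, and it was the gene with an unadjusted p under 0.05 (edgeR), while its adjusted p was 0.427. Without dKO replicate 2 the log2 fold change was 0.36, and the unadjusted p was above 0.05 then and also when ctl replicate 1 or ctl replicate 3 was left out. The 10 astrocyte markers, of cells that also make Ptprz1, summed to 586 to 1046 TPM in ctl and to 929.5 to 2575 TPM in dKO OPCs, again highest in dKO replicate 2. Of these markers 9 of 10 were higher at an unadjusted p under 0.05 (median log2 fold change 1.13), and their part in the values of Ptprz1 was not tested.

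Vcan (ENSMUSG00000021614) encodes versican, a lectican of the matrix around OPCs. It had 690.3, 1272 and 934 in ctl and 1517, 2158 and 898 in dKO OPCs. The dKO replicates 1 and 2 exceeded all ctl libraries, and dKO replicate 3 fell among them. For Vcan this was a log2 fold change of 0.66 (SE 0.32, 95% interval -0.061 to 1.38, adjusted p = 0.468, edgeR), which was 0.33 if dKO replicate 2 was left out. It was 0.92 without dKO replicate 3 and 0.91 without ctl replicate 2, both with an unadjusted p under 0.05. With all 6 libraries Vcan passed that unadjusted threshold with DESeq2, without a filter on low counts and with a replicate block. No setting gave it an adjusted p under 0.05.

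The lineage transcription factors had log2 fold changes below 0, none of which passed the test. Olig1 (ENSMUSG00000046160), a basic helix-loop-helix protein, had 10637, 15719 and 13086 in ctl and 15397, 12841 and 7465 in dKO OPCs. Olig2 (ENSMUSG00000039830), its neighbour on chromosome 16 and needed to specify the lineage, had 2719, 4358 and 3359.6 in ctl and 3898, 3765 and 2288 in dKO OPCs. For both genes the dKO libraries reached above the ctl median and below the ctl minimum. Log2 fold changes were -0.14 for Olig1 (95% interval -0.75 to 0.47) and -0.068 for Olig2 (95% interval -0.61 to 0.47), and each turned positive when dKO replicate 3 or ctl replicate 2 was left out.

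Sox10 (ENSMUSG00000033006), which drives myelin genes, had 7009.9, 9812 and 6897 in ctl and 7183, 6769 and 4583 in dKO OPCs. Only dKO replicate 1 lay within the ctl range. The log2 fold change was -0.36 (SE 0.21, 95% interval -0.84 to 0.13, adjusted p = 0.548, edgeR), and it was negative under each of the 12 other settings tried, between -0.48 and -0.17. The 12 mature oligodendrocyte markers, of cells that also hold Sox10, summed to 45347 to 59199 TPM in ctl and to 35845 to 50778 TPM in dKO OPCs. Of these, 4 of 12 were lower at an unadjusted p under 0.05, with a median of -0.42, and their part in the values of Sox10 was not tested.

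Sox6 (ENSMUSG00000051910), a SOX protein that holds OPCs back from differentiation, had 428, 589 and 578 in ctl and 485, 1031 and 508 in dKO OPCs. The dKO libraries other than replicate 2 lay within the ctl range. The log2 fold change of 0.35 (95% interval -0.31 to 1.00) became -0.096 without dKO replicate 2 and 0.54 without dKO replicate 1.

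Lhfpl3 (ENSMUSG00000106379), a membrane protein with several spans, had 184, 398 and 318 in ctl and 442, 682 and 226 in dKO OPCs. C1ql1 (ENSMUSG00000045532), a secreted ligand of the receptor Adgrb3, had 77.0, 232 and 177 in ctl and 276, 473 and 112 in dKO OPCs. In both cases dKO replicates 1 and 2 were above and dKO replicate 3 within the ctl values. In log2 terms the change was 0.59 for Lhfpl3 (SE 0.40) and 0.84 for C1ql1 (SE 0.52), each with a 95% interval that included 0, and without dKO replicate 2 these were 0.16 and 0.27. Without dKO replicate 3 they were 0.90 and 1.21, both then with an unadjusted p under 0.05. C1ql1 also passed that threshold without a filter on low counts. C1ql1 varied most of all, with a highest value 6.14 times the lowest. Reads of genes on the other strand could not be told apart, and genes overlapping the span of Lhfpl3 held at most 6.14% of its read number each, those overlapping other members at most 0.864%.

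The 10 genes fell into groups by their pattern over the 6 OPC libraries, a division made after the values were seen and described without a test. The 7 genes other than Olig1, Olig2 and Sox10 were all lowest in ctl replicate 1 and all highest in dKO replicate 2, the library with high Xist. Their 21 pairs had Pearson correlations of log2 CPM, the count scaled by depth, between 0.79 and 1.00 (median 0.89). Olig1, Olig2 and Sox10 were all highest in ctl replicate 2 and all lowest in dKO replicate 3, with correlations of 0.85 to 0.96. Between the 3 and the 7 genes the 21 correlations ran from -0.14 to 0.77 (median 0.42). All points share libraries and their depth, and there are 6 of them.

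**Figure D3:**
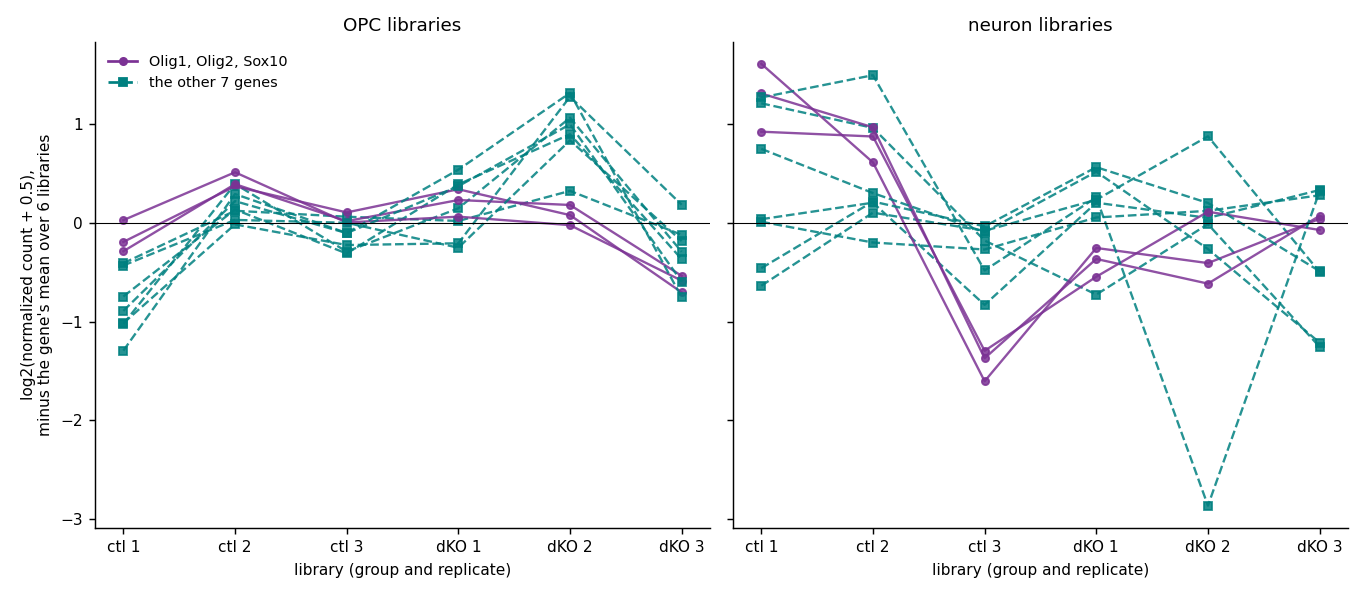
The log2 of each gene's normalized count (0.5 added) minus its mean over the 6 libraries, in OPC libraries (left) and neuron libraries (right), with solid purple lines for Olig1, Olig2 and Sox10 and dashed teal lines for the other 7 genes. On the left the teal lines start lowest in ctl 1 and peak in dKO 2; on the right the purple lines start highest and reach their lowest point in ctl 3.

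Ratios within a library are built from these same values, so they cannot test the division, and they too were picked after the values were seen. Olig1 over Olig2 in TPM stayed between 3.82 and 4.62 in the 6 OPC libraries. Olig1, Olig2 and Sox10 together came to 3.55% to 4.44% of the summed mature oligodendrocyte markers, with the ctl and dKO libraries mixed. The other 7 genes together came to 0.202%, 0.341% and 0.309% of these markers in the ctl libraries and to 0.349%, 0.838% and 0.448% in the dKO libraries. All dKO libraries thus lay above all ctl libraries in this ratio, though ctl replicate 2 and dKO replicate 1 were close to each other. Pdgfra over Sox10 was 0.0332, 0.0634 and 0.0561 in ctl and 0.0730, 0.146 and 0.0843 in dKO OPCs, without overlap either, while Ptprz1 over Sox10 overlapped (0.0589 to 0.104 in ctl and 0.101 to 0.299 in dKO). Among all single genes 17.0% had groups that did not overlap, but the share among ratios of this kind was not computed. The denominator moved as well, since 4 of the 12 mature oligodendrocyte markers were lower in dKO at an unadjusted p under 0.05, and astrocyte markers were higher in 9 of 10. The part of either list in these ratios was not tested.

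The genes whose log2 level over the 6 OPC libraries was most like the mean of the 10 genes were Nlgn1 with a correlation of 0.99, Gpr17, Tafa5, Relt and Plppr5, each with 0.99. Gpr17 marks the step at which OPCs commit to differentiate, and Nlgn1 is a synaptic adhesion protein. A correlation above 0.9 was found for 214 of the 11883 genes compared, so this likeness was shared by many genes.

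Other genes of the same pathways were counted in OPC libraries, and none had an adjusted p under 0.05. Each count that follows stands beside the 11.5% of all genes at an unadjusted p under 0.05 in either direction. Of 33 further genes known to be enriched in OPCs, 6 were higher and 0 lower at that threshold, and 27 of 33 had a positive log2 fold change (median 0.51). The smallest p-values were those of Ednrb, an endothelin receptor (log2 fold change 0.92), Luzp2 (0.97) and Ncan, which encodes neurocan (1.00). These were again highest in dKO replicate 2, as was the sum of the astrocyte markers, of which 9 of 10 were higher at that threshold, and their part in these counts was not tested. Among 7 other PDGF ligands and receptors none had an unadjusted p under 0.05 (median 0.16), with 0.45 for Pdgfb. Of 18 genes downstream of the PDGF receptor, the adaptor Gab1 was lower (-0.46) and the kinase Akt1 higher (0.24) at that threshold, and the median was 0.023. In both the groups did not overlap.

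Of 13 ligands and partners of the Ptprz1 protein, 3 were higher and 0 lower at an unadjusted p under 0.05 (median 0.24), namely the ligand Mdk (0.85), the scaffold Magi3 (0.49) and the adhesion protein Nrcam (0.89). Of 15 lecticans and partners of versican, 5 were higher and 0 lower (median 0.35), among them the link proteins Hapln1 (1.51) and Hapln4 (1.27) and Ncan, which the OPC-enriched list holds too. Hapln1 had 18.4, 57.2 and 70.0 in ctl and 94.8, 191 and 126 in dKO OPCs, so that each dKO library exceeded each ctl library. Of 29 other SOX and oligodendrocyte transcription factors tested, 4 were higher and 2 lower (median -0.041), with 0.67 for Id2, which restrains differentiation, 1.51 for Sox3 and -0.52 for Prox1. The 6 C1q-like proteins and receptors tested and the 11 NG2 partners tested had none at that threshold, and of 4 LHFPL genes tested Lhfpl2 was higher (0.28). Beside these, the 12 microglia markers summed to 468 to 568 TPM in ctl and 564 to 1771 TPM in dKO OPCs, with 11 of 12 higher at an unadjusted p under 0.05, and neither their part in these counts nor that of the astrocyte markers was tested.

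The third comparison was dKO against ctl within neuron libraries, where the recombinase is not meant to act. Of the 10 genes, 4 were higher and 6 lower in dKO, with a median log2 fold change of -0.57, against 0.0075 over the 14352 genes tested. No gene, member or not, had an adjusted p under 0.05 (0% of all genes tested, edgeR), although 1292 had an unadjusted p under 0.05 and DESeq2 called 88. At the unadjusted threshold 1 member was called, lower in dKO, where 9.00% of all genes were. The groups did not overlap for 1 member, higher in dKO, where they did not for 15.3% of all genes, so both counts were near the share of all genes. Without ctl replicate 3 the members at an unadjusted p under 0.05 were 4 (of 998 genes in all), namely Olig1, Olig2, Sox10 and Cspg4, all lower. Without ctl replicate 1 the members' median was -0.19, and without ctl replicate 3 it was -0.88.

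**Figure D4:**
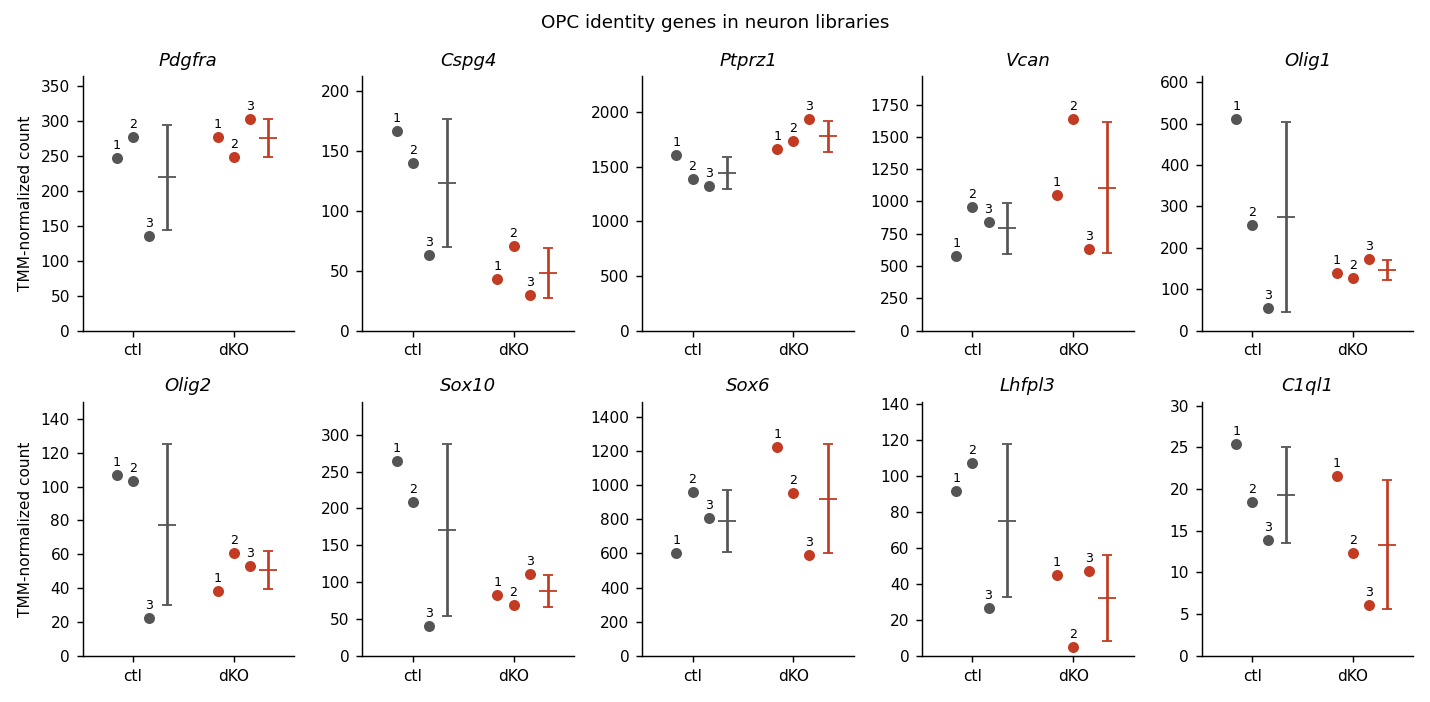
TMM-normalized count of each gene in the 3 ctl (gray) and 3 dKO (red) neuron libraries, numbered by replicate, with the mean and SD beside them. Ptprz1 is the panel in which all dKO points lie above all ctl points, and the ctl points of Olig1 spread from 54.6 to 512.

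Cspg4 in neurons had a normalized count of 167, 140.1 and 63.2 in ctl and of 43.1, 71.0 and 29.7 in dKO libraries. The groups overlapped, since ctl replicate 3 fell below dKO replicate 2. The log2 fold change was -1.36 (SE 0.48, 95% interval -2.44 to -0.27, adjusted p = 0.521, edgeR), and it stayed between -1.76 and -1.09 as each library was left out. Cspg4 was the member with an unadjusted p under 0.05, which it lost without ctl replicate 1, ctl replicate 2 or dKO replicate 3. Cspg4 is also made by pericytes, whose 10 markers summed to 356 to 931 TPM in ctl and 482 to 943 TPM in dKO neurons, with 0 of 10 at an unadjusted p under 0.05. The 10 endothelial markers summed to 15694 to 18064 TPM in ctl neurons, and to 6990.2, 14516 and 14449 TPM in dKO replicates 1, 2 and 3. Of these markers 3 of 10 were lower at that threshold and 0 of 10 had a positive log2 fold change (median -0.40). Neuron dKO replicate 1 also had the highest choroid plexus sum, 67778 TPM. Of 10 markers of committed oligodendrocytes 2 were lower, and 1 of 10 had a positive log2 fold change (median -0.80). The part of these lists, or of the knock-in allele, in the values of Cspg4 was not tested.

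Ptprz1 in neurons had 1611, 1392 and 1325 in ctl and 1659.5, 1739 and 1939.9 in dKO libraries. All dKO libraries lay above all ctl libraries, by a small margin. The log2 fold change was 0.30 (SE 0.14, 95% interval -0.014 to 0.62, adjusted p = 0.558, edgeR), between 0.24 and 0.39 as each library was left out, with an unadjusted p under 0.05 without ctl replicate 1 or dKO replicate 1. Markers of dividing cells summed to 358 to 495 TPM in ctl and 540 to 672 TPM in dKO neurons, with 8 of 10 higher at an unadjusted p under 0.05 (median 0.56), as were the 8 choroid plexus markers, while of the astrocyte markers 2 of 10 were lower and 2 of 10 had a positive log2 fold change (median -0.39). The part of these lists in the values of Ptprz1 was not tested. Of 13 ligands and partners of the Ptprz1 protein none passed the adjusted threshold, and at an unadjusted p under 0.05, where 9.00% of all genes stood, 1 was higher and 1 lower (median 0.33). These were the ligands Mdk, which encodes midkine (0.54), and Ptn, which encodes pleiotrophin (-0.42). The groups of both did not overlap, as in 15.3% of all genes.

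Olig1 in neurons had 512, 256 and 54.6 in ctl and 140.1, 126 and 172 in dKO libraries, Olig2 had 107, 103 and 22.5 against 38.2, 60.6 and 53.2, and Sox10 had 264, 208 and 40.7 against 82.3, 69.1 and 112. In all 3 genes the ctl libraries held both extremes, and the dKO libraries lay between them. The log2 fold changes were -0.91 (95% interval -2.33 to 0.51), -0.61 (-1.90 to 0.68) and -0.96 (-2.29 to 0.36). Without ctl replicate 1 they were -0.092, -0.31 and -0.51, and without ctl replicate 3 they were -1.39, -1.05 and -1.43, each then with an unadjusted p under 0.05. The 12 mature oligodendrocyte markers followed the same order in ctl, with a sum of 2993, 1610 (ctl replicate 2) and 419.5 TPM, and had 734, 986 and 1523 TPM in dKO neurons, where the beads against O4 were meant to remove such cells. Olig1, Olig2 and Sox10 together came to 1.16% to 1.74% of that sum in the 6 libraries. All 12 of these markers had a negative log2 fold change (median -0.88), with 0 of 12 at an unadjusted p under 0.05, and their part in the values of the 3 genes was not tested.

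Lhfpl3 in neurons had 91.4, 107 and 26.8 in ctl and 45.1, 4.73 and 47.1 in dKO libraries, where the lowest value stands for 5 estimated reads. C1ql1 had 25.4, 18.5 and 13.9 in ctl and 21.55, 12.3 and 6.14 in dKO libraries, close to the limit below which genes were not tested. For either gene the groups overlapped, and at so few reads the intervals were wide (log2 fold change -1.22, 95% interval -3.03 to 0.59, and -0.53, -1.97 to 0.92). As each library was left out they ran from -1.62 to -0.70 for Lhfpl3 and from -1.05 to -0.19 for C1ql1.

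Pdgfra in neurons had 247, 277 and 135 in ctl and 277, 249 and 303 in dKO libraries, with a log2 fold change of 0.33 (95% interval -0.31 to 0.97). Vcan had 574, 959 and 844 in ctl and 1050.1, 1639.7 and 632 in dKO libraries (0.48, 95% interval -0.27 to 1.24). Sox6 had 602, 962 and 808 in ctl and 1224.5, 952 and 589.65 in dKO libraries (0.22, 95% interval -0.40 to 0.85). The groups overlapped for these 3 genes, and Sox6 turned to -0.036 without dKO replicate 1. Vcan had 0.086 without dKO replicate 2 and 0.76, with an unadjusted p under 0.05, without dKO replicate 3. Pdgfra had 0.077 without ctl replicate 3 and 0.53 without ctl replicate 2. The 10 neuron markers summed to 481 to 629 TPM in ctl and 677 to 921 TPM in dKO neurons. Of these, 1 of 10 was higher at an unadjusted p under 0.05, and 10 of 10 had a positive log2 fold change (median 0.57). Their part in the values of Pdgfra, Vcan and Sox6 was not tested.

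The shared pattern of the 7 genes in OPC libraries was not seen in neuron libraries, where their 21 correlations ran from -0.74 to 0.77 (median -0.047), while Olig1, Olig2 and Sox10 kept 0.92 to 0.97. Among the pathway lists in neurons none had a gene with an adjusted p under 0.05. At an unadjusted p under 0.05, where 9.00% of all genes stood, 4 of 31 further OPC-enriched genes tested were higher and 2 lower (median 0.19), with 0.58 for Ncan and -0.86 for Tmem100. Of 26 SOX and oligodendrocyte transcription factors tested, 3 were higher (median 0.098), among them Sox2 (0.71) and Sox9 (0.41). Of 11 NG2 partners tested, the protease Mmp14 was higher (0.62), and of 5 LHFPL genes tested, Lhfpl4 (0.60). Of 12 lecticans and partners tested, Ncan was higher and the link protein Hapln2 lower (-1.97), with a median of -0.18. Of 18 genes downstream of the PDGF receptor, the exchange factor Sos1 was lower (-0.44), and 6 of 18 had a positive log2 fold change. The 7 PDGF ligands and receptors and the 8 C1q-like proteins and receptors tested had none at that threshold. The part of the dividing-cell and choroid plexus markers, 8 of 10 and 8 of 8 higher in these libraries, was not tested.

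Set side by side, 4 of the 10 genes (Pdgfra, Ptprz1, Vcan and Sox6) had a positive log2 fold change in both cell types, Olig1, Olig2 and Sox10 a negative one in both, and Cspg4, Lhfpl3 and C1ql1 a positive one in OPCs and a negative one in neurons. Apart from Ptprz1 in OPCs and Cspg4 in neurons, each 95% interval included 0. The intervals of Cspg4 in the cell types, -0.25 to 0.54 and -2.44 to -0.27, did not meet, but the difference between cell types was not tested.

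**Figure D5:**
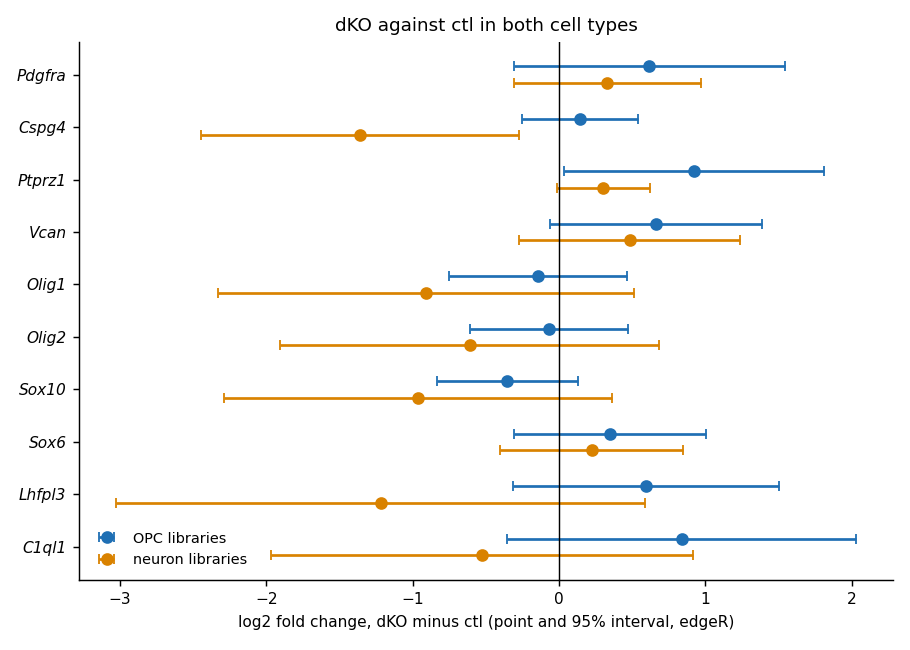
Log2 fold change of dKO against ctl for each gene, with the 95% interval from edgeR, in OPC libraries (blue) and neuron libraries (orange). The interval of Ptprz1 in OPCs (0.031 to 1.81) and that of Cspg4 in neurons (-2.44 to -0.27) lie to one side of 0, and the others cross it.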

How the data were processed

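The OPC table the authors deposited holds raw counts of reads per gene and FPKM values, made by HISAT2 alignment to GRCm38 and featureCounts per their methods. The submitters' processing notes name the build mm39, and coordinates of the table served here only to find overlapping genes. For neurons the authors deposited estimated counts and TPM per RefSeq transcript, values that are not whole; their methods name HISAT2 and featureCounts for the RNA-seq, which by default give whole reads per gene, so how the neuron table was made is not given in the sources used here. Both were summed per gene here, and the estimated counts rounded to whole numbers. The FPKM values the authors deposited were rescaled here to TPM. The deposited tables also hold the authors' own test results for dKO against ctl (fold changes and p-values), which were not used.

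A mean normalized count of 10 was required, and dKO was set against ctl in each cell type alone with edgeR 4.0.16 (R 4.3.3), using TMM, the quasi-likelihood test and Benjamini-Hochberg adjustment over all genes tested. Standard errors were the log2 fold change over the square root of F. DESeq2 1.42.0, other scalings, filters, a replicate block and leaving out each library were alternatives. No pair of libraries of a group agreed within sampling noise (smallest chi-square per gene 15.9 in OPCs, 23.0 in neurons). The coefficient of variation between libraries was 20.5% in OPCs and 27.7% in neurons. The script was tested on simulated data. Neuron columns named cKO were matched to the titles of dKO libraries. Symbols were matched for 17794 neuron gene identifiers through RefSeq.

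Apart from the 10 genes and the targeted genes, up to 3 genes per list with the smallest p, and the 5 genes most like the members' mean among those whose normalized count averaged 100 or more, were named, and sex-linked genes and ratios were chosen after their values were seen. The members and lists were chosen with earlier results of these data known. P-values measure the spread between pools of 2 mice. Values of some members of the marker and pathway lists are not reported here.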

Additional observations from a re-analysis of the deposited data

How the results depend on the processing

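No member had an adjusted p under 0.05 under any of the 12 alternatives in OPCs or the 13 in neurons. In OPCs the genes past the adjusted threshold, 1 in all, were 293 with DESeq2, 87 without a filter on low counts, and 1 to 199 as each library was left out, the highest without dKO replicate 2. The members at an unadjusted p under 0.05 were 2 with DESeq2 (of 2061 genes in all), 3 without a filter (of 2760) and 0 to 4 as each library was left out (0 without ctl replicate 1, ctl replicate 3 or dKO replicate 2, 3 without ctl replicate 2 and 4 without dKO replicate 3). All genes at that threshold numbered 1106 to 2292 as each library was left out. In neurons DESeq2 gave 88 genes past the adjusted threshold, and as each library was left out 780 to 1581 genes and 0 to 4 members (0 without ctl replicate 2, 2 without dKO replicate 1, 4 without ctl replicate 3) had an unadjusted p under 0.05. The members' median log2 fold change in OPCs ran from 0.076 without dKO replicate 2 to 0.68 without dKO replicate 3. As each library was left out, signs turned in OPCs for Cspg4 (-0.0065 to 0.24, negative without ctl replicate 1), Olig1 (-0.37 to 0.093, positive without ctl replicate 2, at 0.0045, and dKO replicate 3), Olig2 (-0.22 to 0.13, positive without the same libraries) and Sox6 (-0.096 to 0.54, negative without dKO replicate 2), and in neurons for Sox6 (-0.036 to 0.46, negative without dKO replicate 1). The cause was not tested.

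The replicate numbers did not consistently pair the libraries. Correlations of deviations between like-numbered libraries were -0.17, 0.21 and 0.20 in OPCs and 0.21, -0.063 and -0.072 in neurons. The like-numbered dKO library was the closest for ctl replicate 3 in OPCs and for ctl replicate 1 in neurons only. With the replicate block, 27 genes passed the adjusted threshold in OPCs and 0 in neurons. At the unadjusted threshold there were 2025 genes and 3 members (Ptprz1, Pdgfra and Vcan) in OPCs, and 1285 genes and 1 member in neurons. Depth limits C1ql1 and Lhfpl3 in neurons, where single libraries held 6 and 5 estimated reads.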
